A study of Mus musculus with 11 samples.

Results

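The 10 genes described here belong to the fibroblast growth factor (FGF) pathway. They are the ligands Fgf1, Fgf8 and Fgf10, the receptors Fgfr1, Fgfr2, Fgfr3 and Fgfr4, the feedback inhibitors Spry2 and Spry4, and the transcription factor Etv4. They were taken as named genes, by symbol, from a deposited count table of 15061 genes in mouse yolk sac, and all 10 of 10 were found there. All 10 passed the filter on low counts, as did 14671 genes in total, although Fgf8 passed through the H1CKO libraries alone and so had to be higher there.

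FGFs are secreted proteins that bind receptor tyrosine kinases on the cell surface, with heparan sulfate as a cofactor. The bound receptors signal through Ras and ERK, which raises transcription of ETS factors such as Etv4 and of inhibitors such as the Sprouty genes. The inhibitors act back on the pathway, so Sprouty and Etv4 transcripts are widely read as targets of FGF signalling. In the embryo Fgf8 is known from the midbrain-hindbrain isthmus, the pharyngeal region, the limb ridge and the tail bud, and Fgf10 from limb and pharyngeal mesoderm.

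The yolk sac encloses the embryo and is built of visceral endoderm and of extraembryonic mesoderm, which forms blood and vessels. RNA of whole yolk sacs at embryonic day 9.5 was sequenced in 11 libraries. The 3 H1CKO libraries (5 to 7) carried T-Cre+/- and Hand1 fx/fx, so that Cre, driven by the primitive streak gene T (brachyury), removes the transcription factor gene Hand1 from cells with a history of T expression. The 4 H1H2H2 libraries (8 to 11) carried Hand1 H2/H2, in which both Hand1 alleles hold Hand2, a related gene, in place of Hand1. The 4 control libraries (1 to 4) carried Hand1 fx/+, with 1 floxed allele. A Cre is named for H1CKO alone, so effects of Cre and of Hand1 loss cannot be told apart. Sample names of H1CKO give a knockout allele over a floxed one, which differs from their genotype label, and the names of control 1 and control 2 share a yolk sac number. Nothing states that libraries came from separate litters, and p-values measure only the spread between these libraries, which may be technical.

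Library totals were 12019377 to 12373800 counts in H1CKO, 14420211 to 16824228 counts in H1H2H2 and 13948560 to 15465289 counts in control. Hand1 held 5.95 to 10.8 CPM (counts scaled to library size, TMM-normalised) in H1CKO, 4.35 to 15.2 CPM in H1H2H2 and 31.1 to 91.1 CPM in control, and edgeR called it lower than control in H1CKO (log2 fold change -2.86, adjusted p = 0.000202) and in H1H2H2 (-2.55, adjusted p = 0.00482). Hand2 averaged 78.4 ± 11.7 CPM in H1CKO, 43.6 ± 25.6 CPM in H1H2H2 and 41.2 ± 6.65 CPM in control (SD, n = 3, 4 and 4). It was not called higher in H1H2H2, which are labelled as carrying it in place of Hand1 (0.08, adjusted p = 0.873), and was called higher in H1CKO (0.93, adjusted p = 0.0273). The groups are named by their labels throughout. Which Hand1 exons are deleted or replaced is not given in the sources used here. The labelled tissue was checked against 18 visceral endoderm markers, which summed to 10140 to 17241 CPM in H1CKO, 47344 to 50432 CPM in H1H2H2 and 39611 to 45955 CPM in control. Of these markers, 17 were lower and 1 was higher in H1CKO than in control by edgeR. The 12 neural tube and brain markers summed to 96.0 to 120.8 CPM in H1CKO, 0.55 to 0.93 CPM in H1H2H2 and 0.30 to 1.78 CPM in control, and all 12 were higher in H1CKO. The neural markers Neurog1 and Neurog2 were at 0 in all control libraries, and Sox1, Otx2, Foxb1, Neurog1, Neurog2 and Hes5 were at 0 in all H1H2H2 libraries. Of 15 heart muscle markers, 15 were higher in H1CKO, with sums of 4076 to 10648 CPM in H1CKO, 27.9 to 65.4 CPM in H1H2H2 and 38.6 to 217.7 CPM in control, where Myl2 and Nppa were at 0. By sex-linked transcripts the 3 H1CKO libraries were male, 3 H1H2H2 libraries were male and 1 was female, and 1 control library was male and 3 were female. H1CKO differed from both other groups in these marker sums as well as in the called genes below. Among the H1CKO libraries, library 5 had the lowest neural sum, the highest heart muscle sum and the highest Fgf8 (7.62 CPM). The part of embryonic tissue in the called differences was not tested.

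The first question was how the FGF genes differ when T-Cre removes Hand1. In H1CKO yolk sac, 5 of the 10 genes were higher than in control (Fgf8, Fgf10, Fgfr2, Spry2 and Etv4) and 3 were lower (Fgf1, Fgfr3 and Fgfr4). Fgfr1 and Spry4 were not called. A call is an adjusted p under 0.05 in edgeR's quasi-likelihood test, with Benjamini-Hochberg adjustment over all 14671 genes. By that rule 52.6% of all genes were called in this comparison, 27% higher and 25.6% lower. The median log2 fold change was 0.49 over the 10 genes and 0.03 over all genes tested. Without Fgf8, 4 of 9 were higher and 3 lower, with a median of 0.12. All 8 called genes had H1CKO libraries that did not overlap the control libraries, 5 above and 3 below, and so did 60.7% of all genes, 31.5% above and 29.1% below.

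In H1H2H2 against control, edgeR called 0 of the 10 genes, where 16.7% of all genes were called, 9.49% higher and 7.16% lower. At an unadjusted p under 0.05 there were 4 of the 10 (Fgf10, Fgfr2, Fgfr3 and Spry2). DESeq2 called 1 gene, Fgf10, lower, and limma-voom called 0. The median log2 fold change of the 10 genes was -0.11, against -0.01 over all genes tested. For Fgfr3 and Spry2 all H1H2H2 libraries were above all control libraries, as for 11% of all genes, and for none of the 10 were they all below, as for 8% of all genes. Without H1H2H2 8, edgeR called 4 of the 10, with Fgfr3 higher and Fgf1, Fgfr1 and Fgfr2 lower, where 34.6% of 14629 genes were called. Set directly against H1CKO, H1H2H2 was higher in 3 genes (Fgf1, Fgfr3 and Fgfr4) and lower in 5 (Fgf8, Fgf10, Fgfr2, Spry2 and Etv4), where 65% of all genes were called, 31.8% higher and 33.3% lower. The libraries did not overlap for these 8 genes, nor for 62.3% of all genes, 29.7% above and 32.6% below. Without Fgf8, 3 of 9 genes were higher and 4 lower in H1H2H2 than in H1CKO. The calls here and in the authors' deposited table were the same for 10 of the 10 genes in H1CKO against control, 9 in H1H2H2 against control and 10 in H1H2H2 against H1CKO. The comparisons against control share the control libraries, and the direct one shares its H1CKO and H1H2H2 libraries with them.

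**Figure D1:**
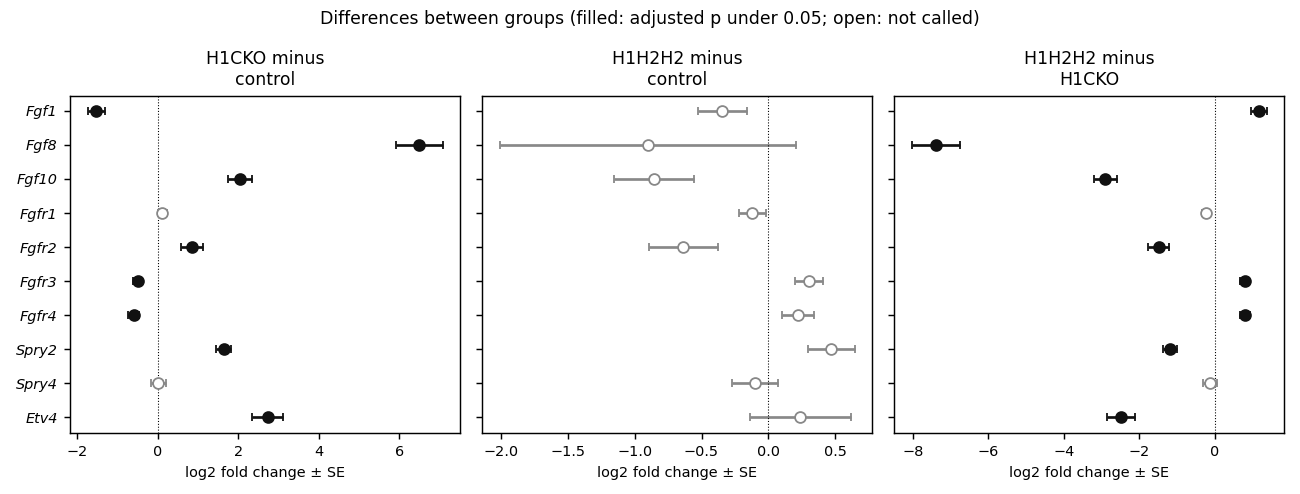
Log2 fold change of the 10 FGF genes (points, with SE as bars) in H1CKO minus control, H1H2H2 minus control and H1H2H2 minus H1CKO, with filled points for an adjusted p under 0.05 by edgeR; the x axis differs between panels. In the first panel Fgf10 stands at 2.05 and Fgf1 at -1.52, and in the second no point is filled; Fgf8 is fitted from only 2 counts in H1H2H2 and 4 in control.

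Fgf8 was counted almost only in H1CKO. Fgf8 (mm10 chromosome 19, 45736798 to 45742884, minus strand, as are all positions below in mm10 and counted over exons) encodes an isthmus, limb and tail bud ligand. It had 97, 87 and 91 counts in H1CKO, 0, 0, 0 and 2 counts in H1H2H2 and 2, 2, 0 and 0 counts in control. Its levels in H1CKO were 7.62, 6.64 and 6.95 CPM, well apart from every other library. From 275 counts in H1CKO and 4 in control, the CPM-scaled ratio of summed counts was 101 (95% interval 38.99 to 373, counting error only). The ratio describes these libraries, since the filter kept Fgf8 for its H1CKO counts, and the fitted fold change is no more than a rough value at so few control counts. H1H2H2 over H1CKO gave a ratio of 0.00472 (95% interval 0.000569 to 0.0172), from 2 counts in H1H2H2 and 275 in H1CKO. No fold is given for H1H2H2 over control, with 2 counts in H1H2H2 and 4 in control, none of these libraries above the floor of 3 counts (0.187 to 0.223 CPM per library). Markers of the isthmus (5 genes in the file) summed to 12.9 to 24.5 CPM in H1CKO, 0.81 to 1.59 CPM in H1H2H2 and 1.04 to 2.20 CPM in control, and 4 of 4 tested were higher in H1CKO. The isthmus marker Wnt1 was at 0 in H1H2H2 and in control. Tail bud markers (4 genes in the file) summed to 12.6 to 26.6 CPM in H1CKO, 15.3 to 18.2 CPM in H1H2H2 and 11.3 to 13.5 CPM in control, with Wnt3a at 0 in H1H2H2 and 2 of 3 tested higher in H1CKO. Most of the tail bud sum is Cdx2, which averaged 11.8 CPM in H1CKO, 16.4 CPM in H1H2H2 and 12.2 CPM in control. The marker T averaged 4.67 CPM in H1CKO, 0.0692 CPM in H1H2H2 and 0.0178 CPM in control. H1CKO 5 had the highest Fgf8 and the lowest isthmus and tail bud sums of its group. Its sum of pharyngeal mesoderm and second heart field markers was the highest (242.8 CPM, beside 151.9 and 159.4 CPM). Its limb bud sum was the lowest (461 CPM, beside 466 and 551 CPM). The part of any of these lists in the Fgf8 difference was not tested.

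Fgf10 (chromosome 13, 118714699 to 118792573, plus strand), a mesenchymal ligand that acts on FGFR2 of epithelia, had 10.6, 12.7 and 14.5 CPM in H1CKO. It had 1.91, 1.37, 1.52 and 1.93 CPM in H1H2H2 and 4.76, 1.79, 3.57 and 2.05 CPM in control. The H1CKO libraries were all above the control libraries, and H1H2H2 and control overlapped, with control 1 and control 3 the highest of the controls. The log2 fold change was 2.05 in H1CKO over control (SE 0.293, adjusted p = 0.000112, edgeR) and -2.90 in H1H2H2 over H1CKO (SE 0.306, adjusted p = 6.65e-06). For H1H2H2 over control it was -0.85 (SE 0.299, adjusted p = 0.0681), which missed the threshold. The authors' deposited table lists it as lower there, with a log2 fold change of -0.86 and an FDR of 0.0439. DESeq2 gave -0.86 (adjusted p = 0.0378), and edgeR without control 2 gave -1.04 (adjusted p = 0.0464). Of its exon bases, 1.51% overlap Gm16263 on the opposite strand, and whether the counting used strand is not given in the sources used here. Pharyngeal mesoderm and second heart field markers summed to 151.9 to 242.8 CPM in H1CKO, 18.6 to 27.4 CPM in H1H2H2 and 24.6 to 37.01 CPM in control. All 6 of 6 were higher in H1CKO. Limb bud markers summed to 461 to 551 CPM in H1CKO, 206 to 284 CPM in H1H2H2 and 230.3 to 274 CPM in control, with 4 of 6 higher in H1CKO. H1CKO 5 had the highest pharyngeal sum and the lowest Fgf10 of its group. The limb bud sums of H1CKO 5, 6 and 7 were 461, 466 and 551 CPM, in the same order as Fgf10. The part of either list in the Fgf10 difference was not tested.

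Fgf1 (chromosome 18, 38838673 to 38918699, minus strand), a ligand that binds all the FGF receptors and lacks a signal peptide, was lower in H1CKO. It had 16.3, 8.17 and 11.2 CPM in H1CKO, 33.7, 24.7, 24.4 and 24.3 CPM in H1H2H2 and 32.96, 28.6, 37.2 and 37.3 CPM in control. The H1CKO libraries lay below every other library, and H1H2H2 8 stood among the controls while its 3 fellows lay below all of them. Fgf1 was lower in H1CKO than in control by 2.86-fold (log2 fold change -1.52, SE 0.209, adjusted p = 8.72e-05, edgeR). Against H1CKO, H1H2H2 was higher by 1.17 on the log2 scale (SE 0.208, adjusted p = 0.000342). For H1H2H2 over control the value was -0.34 (SE 0.181, adjusted p = 0.196), and without H1H2H2 8 it was -0.49 (adjusted p = 0.0473). The H1CKO libraries, lowest in Fgf1, also had the lowest visceral endoderm sums, given above. The sums of H1CKO 5, 6 and 7 were 17241, 10140 and 10807 CPM, in the same order as their Fgf1. H1H2H2 9 to 11 had less Fgf1 than every control beside sums above every control. The part of these cells was not tested. In a bulk library, fewer cells of a type and less RNA per cell cannot be told apart, here and in the results that follow.

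**Figure D2:**
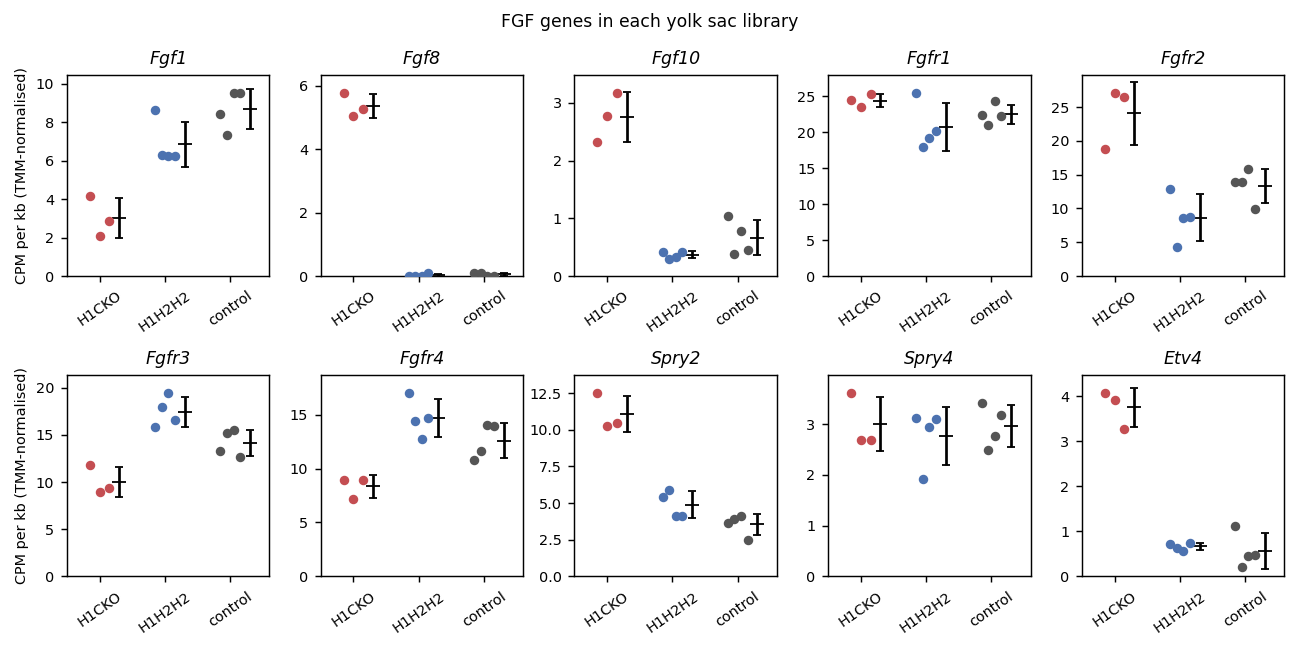
Level of each of the 10 FGF genes in every library as CPM per kb of gene length (TMM-normalised), with bars for mean and SD (n = 3 H1CKO, 4 H1H2H2 and 4 control); each panel has its own y axis from 0. Fgf8 stands at 5.04 to 5.78 CPM per kb in H1CKO and at most 0.108 CPM per kb elsewhere, while Fgfr1 and Spry4 overlap across the groups.

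Of the receptors, Fgfr2 was called higher and Fgfr3 and Fgfr4 lower in H1CKO than in control, while Fgfr1 was not called, and no receptor was called in H1H2H2 against control. Fgfr2 (chromosome 7, 130162451 to 130266808, minus strand), the receptor for FGF10 and FGF7 in its epithelial isoform, had 100.1, 145 and 141 CPM in H1CKO. It had 68.5, 22.9, 46.1 and 46.6 CPM in H1H2H2 and 74.2, 74.0, 84.6 and 52.7 CPM in control. All H1CKO libraries were above all others, and H1H2H2 overlapped control, with H1H2H2 9 the lowest. Counts per gene do not separate the receptor isoforms. The log2 fold change was 0.85 in H1CKO over control (SE 0.275, adjusted p = 0.0205, edgeR) and -1.49 in H1H2H2 over H1CKO (SE 0.278, adjusted p = 0.00051). Adding sex to the model ended the H1CKO call (0.73, adjusted p = 0.133). Leaving out 1 library also ended it in 3 cases, at 0.71 without control 4 (adjusted p = 0.0705), at 0.72 without H1CKO 6 (adjusted p = 0.0859) and at 0.78 without H1CKO 7 (adjusted p = 0.0699). For H1H2H2 over control it was -0.63 (SE 0.261, adjusted p = 0.108), and without H1H2H2 8 it was -0.91 (adjusted p = 0.0153). Markers of extraembryonic mesoderm (10 genes) summed to 1913, 2375 and 2585 CPM in H1CKO, to 7764, 3079, 5005 and 5460 CPM in H1H2H2 and to 6013, 6222, 6741 and 5973 CPM in control. Among the H1H2H2 libraries, 8 had the highest and 9 the lowest value of both Fgfr2 and this sum. H1CKO had the highest Fgfr2 and the lowest sum. The sum is mostly Col1a1, Col3a1 and Postn, and of the 10 markers 6 were lower and 1 was higher in H1CKO than in control. Vim averaged 396 ± 21.3 CPM in H1CKO and 288 ± 27.6 CPM in control. None of these markers was at 0 in a whole group, and their part in the Fgfr2 values was not tested.

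Fgfr3 (chromosome 5, 33721724 to 33737068, plus strand), a receptor best known for restraining bone growth, had 52.1, 39.2 and 41.4 CPM in H1CKO. It had 69.6, 78.9, 85.5 and 72.9 CPM in H1H2H2 and 58.6, 66.7, 68.1 and 55.6 CPM in control. The 3 groups did not overlap, with H1CKO lowest and H1H2H2 highest. H1CKO was lower than control (log2 fold change -0.49, SE 0.117, adjusted p = 0.00363, edgeR), and H1H2H2 was higher than H1CKO (0.79, SE 0.117, adjusted p = 8.3e-05). For H1H2H2 over control the value of 0.30 (SE 0.106, adjusted p = 0.0681) was not called, and 0.33 without H1H2H2 8 was (adjusted p = 0.0278), as was the value without H1CKO 5 (adjusted p = 0.0414). Between H1H2H2 and control, 19% of all genes had libraries that did not overlap. Of the exon bases of Fgfr3, 9.93% overlap G630022F23Rik on the opposite strand, so its counts are less certain.

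Fgfr4 (chromosome 13, 55152818 to 55168759, plus strand), the receptor that with beta-klotho answers endocrine FGFs in liver, had 28.2, 22.4 and 28.1 CPM in H1CKO. It had 53.4, 45.4, 40.1 and 46.1 CPM in H1H2H2 and 34.03, 36.5, 44.1 and 43.8 CPM in control. H1CKO lay below all others, and H1H2H2 10 alone of its group fell among the controls. H1CKO was lower than control (log2 fold change -0.59, SE 0.131, adjusted p = 0.00239, edgeR) and H1H2H2 was higher than H1CKO (0.82, SE 0.132, adjusted p = 0.000167). H1H2H2 over control was 0.22 (SE 0.118, adjusted p = 0.2). Fgfr1 (chromosome 8, 25518759 to 25575718, plus strand), the receptor that mesoderm uses at gastrulation, had 123, 118 and 127 CPM in H1CKO, 128, 89.8, 96.4 and 101 CPM in H1H2H2 and 113, 105, 122 and 111 CPM in control. Its groups overlapped in each comparison, and 2.49% of its exon bases overlap Gm16159 on the opposite strand. No Fgfr1 comparison was called, with log2 fold changes of 0.12 (SE 0.107) for H1CKO over control, -0.12 (SE 0.0989) for H1H2H2 over control and -0.24 (SE 0.107, adjusted p = 0.0648) for H1H2H2 over H1CKO. Without H1H2H2 8, the H1H2H2 value over control was -0.25 (adjusted p = 0.0144).

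**Figure D3:**
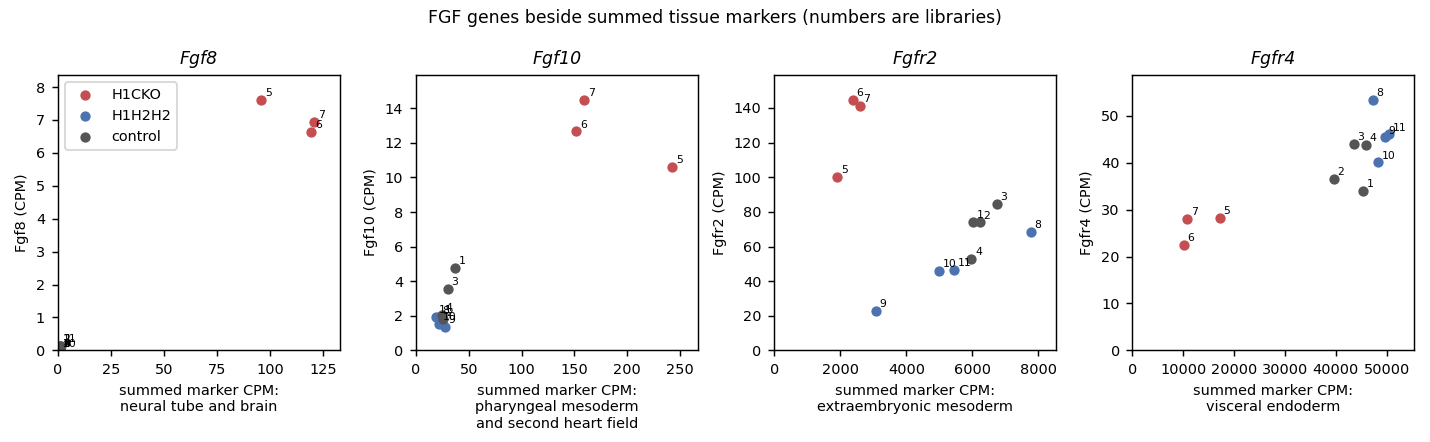
Level in CPM of Fgf8, Fgf10, Fgfr2 and Fgfr4 (y axes) beside the summed CPM of a marker list (x axes) in each of the 11 libraries, which are numbered. H1CKO stands apart in every panel, and for Fgfr2 the libraries H1H2H2 8 and H1H2H2 9 are the ends of their group on both axes.

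Taken per length, the summed level of the 4 receptors overlapped between the groups, and the shares of Fgfr2, Fgfr3 and Fgfr4 in H1CKO lay outside those of the other groups. The summed level of the 4 was 66.9 ± 3.06 CPM per kb in H1CKO, 61.4 ± 6.95 CPM per kb in H1H2H2 and 62.5 ± 4.83 CPM per kb in control (SD, n = 3, 4 and 4). Fgfr2 made up 35.9 ± 5.92% of that sum in H1CKO, 13.7 ± 4.25% in H1H2H2 and 21.3 ± 2.96% in control. Fgfr3 made up 15.1 ± 2.97% in H1CKO, 28.8 ± 4.96% in H1H2H2 and 22.6 ± 1.37% in control. The Fgfr2 shares ran from 29.3 to 40.7% in H1CKO, 7.85 to 18.04% in H1H2H2 and 16.8 to 22.97% in control, so that only H1H2H2 8, at 18.04%, and control 4, at 16.8%, bring H1H2H2 and control to overlap. Fgfr4 made up 12.5 ± 1.66% in H1CKO, 24.005 ± 2.14% in H1H2H2 and 20.2 ± 2.56% in control. Fgfr1 held 36.5 ± 1.51% in H1CKO, 33.5 ± 1.64% in H1H2H2 and 35.9 ± 1.82% in control. These shares are a description, with no test, and a share falls when another rises.

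**Figure D4:**
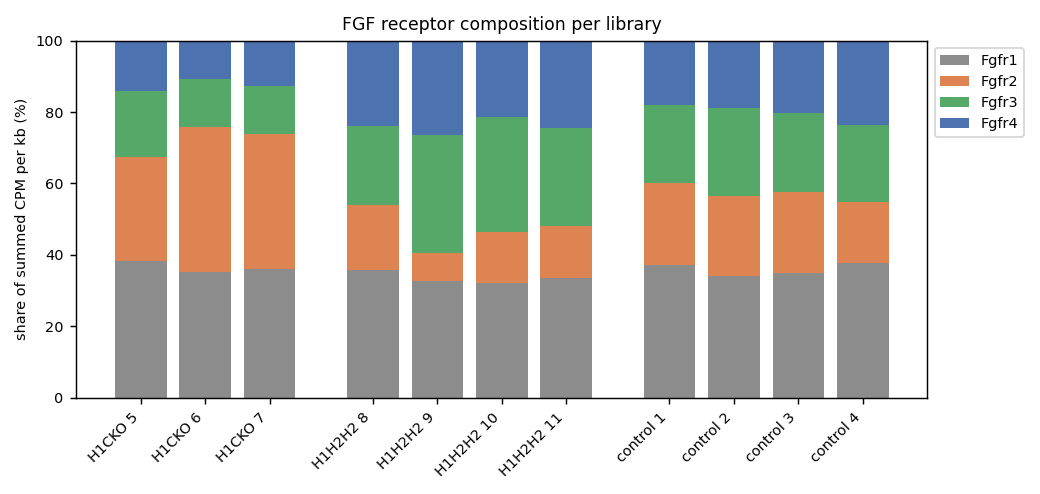
Share of each FGF receptor gene in the summed CPM per kb of the 4 receptors, in percent, as stacked bars for each library, grouped as H1CKO, H1H2H2 and control. The Fgfr2 share is 29.3 to 40.7% in H1CKO, 7.85 to 18.04% in H1H2H2 and 16.8 to 22.97% in control.

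Per length, Fgfr1 had the highest mean level of the 10 genes in each group. In H1CKO the order of mean levels in CPM per kb was Fgfr1 at 24.4 and Fgfr2 at 24.1, which overlapped, then Spry2 at 11.1, Fgfr3 at 10.1 and Fgfr4 at 8.34, each overlapping its neighbour. Fgf8 at 5.36 stood clear of its neighbours. Below it came Etv4 at 3.75, Fgf1 at 3.04, Spry4 at 3.00 and Fgf10 at 2.75, each of which overlapped the next. In H1H2H2 the order was Fgfr1 at 20.6, Fgfr3 at 17.4, Fgfr4 at 14.7, Fgfr2 at 8.61 and Fgf1 at 6.86, again overlapping step by step, then Spry2 at 4.89, Spry4 at 2.77, Etv4 at 0.666, Fgf10 at 0.367 and Fgf8 at 0.0261. Control held Fgfr1 at 22.4, then Fgfr3 at 14.2, Fgfr2 at 13.4 and Fgfr4 at 12.6, which overlapped, then Fgf1 at 8.70, Spry2 at 3.54 and Spry4 at 2.97, with an overlap of the last pair. Fgf10 at 0.665 and Etv4 at 0.565 overlapped in control, above Fgf8 at 0.053. Of Fgf1, Fgf8 and Fgf10, Fgf1 thus had the highest mean level in H1H2H2 and control, and Fgf8 in H1CKO. Other ligands were not ranked per length.

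The feedback targets did not move as 1 group. Spry2 (chromosome 14, 105891947 to 105896819, minus strand), an inhibitor of Ras activation by receptor tyrosine kinases, had 26.1, 21.5 and 21.8 CPM in H1CKO. It had 11.4, 12.3, 8.59 and 8.60 CPM in H1H2H2 and 7.67, 8.11, 8.56 and 5.23 CPM in control. The groups did not overlap, but H1H2H2 10 and H1H2H2 11 lay barely above control 3. H1CKO was higher than control (log2 fold change 1.65, SE 0.185, adjusted p = 2.25e-05, edgeR) and H1H2H2 was lower than H1CKO (-1.18, SE 0.182, adjusted p = 0.000123). H1H2H2 over control was 0.47 (SE 0.176, adjusted p = 0.084) and was not called.

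Spry4 (chromosome 18, 38586265 to 38601268, minus strand), its paralogue, had 16.6, 12.4 and 12.4 CPM in H1CKO, 14.3, 8.83, 13.5 and 14.2 CPM in H1H2H2 and 15.7, 11.5, 12.7 and 14.6 CPM in control. The groups overlapped throughout. The log2 fold change was 0.02 in H1CKO over control (SE 0.187, adjusted p = 0.952, edgeR), -0.10 in H1H2H2 over control (adjusted p = 0.716) and -0.11 in H1H2H2 over H1CKO (adjusted p = 0.612), with signs that turned under some settings.

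Etv4 (chromosome 11, 101769742 to 101785310, minus strand), an ETS factor of the PEA3 family, had 9.503, 9.16 and 7.63 CPM in H1CKO, 1.69, 1.49, 1.32 and 1.72 CPM in H1H2H2 and 2.63, 0.481, 1.04 and 1.12 CPM in control. H1CKO stood above all others and H1H2H2 lay inside the range of control, with control 1 the highest and control 2 the lowest. The log2 fold change was 2.73 in H1CKO over control (SE 0.376, adjusted p = 8.79e-05, edgeR) and -2.49 in H1H2H2 over H1CKO (SE 0.369, adjusted p = 8.86e-05). H1H2H2 over control was 0.24 (SE 0.379, adjusted p = 0.684), from -0.04 to 0.80 as single libraries were left out.

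HAND proteins are basic helix-loop-helix factors, a class that binds E-boxes, so the promoters of 4 called genes are shown with each E-box in capitals. Promoter sequences from RefSeq (GRCm38.p6, 250 bases before to 50 after a start) were examined for 5 of the 10 genes. Those of Fgf1, Fgf8, Fgfr1, Spry4 and Etv4 were left out, so the motif counts below do not cover these genes. Each is printed 5′ to 3′ on the strand of the gene, and positions count from the start. The E-box searched was CANNTG, which reads the same on both strands in its fixed letters. It occurs in 72.3% of 32851 promoters of this length. One form of it, CAGATG or its reverse complement CATCTG, occurs in 17.2% of them. Of the promoters shown, those of Fgf10 (chr13:118714449-118714748, plus strand) and Fgfr2 (chr7:130266759-130267058, minus strand) hold CAGATG, with its first base at -136 for Fgf10 and -2 for Fgfr2. Those of Spry2 (chr14:105896770-105897069, minus strand) and Fgfr4 (chr13:55152568-55152867, plus strand) hold other E-boxes. The first 3 genes were higher and Fgfr4 was lower in H1CKO than in control. Fgfr3, the fifth gene examined and also lower in H1CKO, has 2 starts, of which 1 holds the E-box CAGCTG at -97 and the other holds no E-box. The ETS motif CCGGAAG or CTTCCGG, in 8.86% of promoters, was found in 0 of the 6 promoters of the 5 genes. A match is a description of letters and not a bound site.
Fgf10: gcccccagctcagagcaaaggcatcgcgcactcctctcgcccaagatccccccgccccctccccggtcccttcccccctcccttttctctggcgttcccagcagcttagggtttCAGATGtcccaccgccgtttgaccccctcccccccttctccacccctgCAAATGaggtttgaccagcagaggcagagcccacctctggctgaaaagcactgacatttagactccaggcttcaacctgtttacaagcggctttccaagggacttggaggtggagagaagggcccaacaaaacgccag
Fgfr2: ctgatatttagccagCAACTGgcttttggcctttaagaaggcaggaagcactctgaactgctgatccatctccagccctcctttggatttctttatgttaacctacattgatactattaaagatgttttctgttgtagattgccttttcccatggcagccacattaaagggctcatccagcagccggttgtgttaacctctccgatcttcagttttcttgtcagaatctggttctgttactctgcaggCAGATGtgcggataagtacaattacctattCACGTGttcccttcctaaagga
Spry2: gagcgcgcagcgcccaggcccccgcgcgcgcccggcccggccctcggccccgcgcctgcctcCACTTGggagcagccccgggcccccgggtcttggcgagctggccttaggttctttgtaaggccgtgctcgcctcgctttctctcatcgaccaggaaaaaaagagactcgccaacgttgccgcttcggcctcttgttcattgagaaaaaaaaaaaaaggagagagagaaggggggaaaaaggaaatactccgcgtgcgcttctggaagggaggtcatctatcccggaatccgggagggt
Fgfr4: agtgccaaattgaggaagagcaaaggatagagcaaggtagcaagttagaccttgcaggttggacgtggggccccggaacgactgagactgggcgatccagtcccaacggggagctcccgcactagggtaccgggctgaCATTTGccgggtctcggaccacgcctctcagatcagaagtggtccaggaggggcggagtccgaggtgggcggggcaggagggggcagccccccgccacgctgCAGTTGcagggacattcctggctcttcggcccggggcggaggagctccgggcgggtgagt

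Around the 10 genes, 7 lists of the wider FGF pathway held 97 genes, of which 83 were tested. In H1CKO against control 38 were higher and 14 lower, and without the 10 genes 33 were higher and 11 lower of 73, where 27% and 25.6% of all genes were called. Of the 83, 11 passed the filter on low counts through the H1CKO libraries alone, which favours a higher value there (Fgf3, Fgf7, Fgf8, Fgf9, Fgf12, Fgf14, Fgf15, Fgf18, Etv1, Fgfbp3 and Flrt1). Of the other 72, 28 were higher and 14 lower. In H1H2H2 against control 7 were higher and 4 lower of the 83, where 9.49% and 7.16% of all genes were called. H1H2H2 against H1CKO gave 20 higher and 42 lower of the 83, and 20 higher and 32 lower of the 72 without those 11 genes. Over all genes, 31.8% were called higher and 33.3% lower. Secreted ligands were tested for 8 of 18 listed genes, but 6 of these 8 passed the filter through H1CKO alone, so their count and median are no measure of the list and the values of Fgf15, Fgf9, Fgf18 and Fgf7 below are a description. The other 2 are Fgf10, higher, and Fgf1, lower in H1CKO. Fgf15, whose product is a gut hormone and an embryonic neural factor, had 8.00 ± 4.13 CPM in H1CKO, 0.329 ± 0.122 CPM in H1H2H2 and 0.243 ± 0.0588 CPM in control (SD, n = 3, 4 and 4). Its log2 fold change in H1CKO over control was 4.98 (SE 0.448), and 27.9% of its exon bases overlap opposite-strand genes. Fgf9 and Fgf18, ligands that act on mesenchyme, were higher by 2.83 (SE 0.457) and 2.56 (SE 0.451) on the log2 scale. Fgf7, a ligand of the epithelial FGFR2 isoform, was higher by 1.93 (SE 0.617), and its call was lost without control 4, H1CKO 6 or H1CKO 7. In H1H2H2 against control 0 of the 8 secreted ligands were called by edgeR, with 1 at an unadjusted p under 0.05 and 1 called lower by DESeq2.

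The 4 FGF homologous factors stay inside cells and bind sodium channels rather than FGF receptors. Fgf12 and Fgf14 passed the filter through H1CKO alone, with 105 and 67 counts there, 9 and 3 counts in H1H2H2 and 21 and 8 counts in control. The other 2 were higher in H1CKO than in control, with log2 fold changes of 1.95 for Fgf13 and 2.30 for Fgf11. In H1H2H2 against control 0 of the 4 were called, beside 16.7% of all genes, with 1 at an unadjusted p under 0.05. In H1H2H2 against H1CKO Fgf11 and Fgf13 were lower, as were 33.3% of all genes. These genes are known from neurons and heart muscle, whose marker sums are given above.

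Of the receptors and co-receptors, Klb encodes beta-klotho, the partner of FGFR4 and FGFR1 for endocrine FGFs. Klb had 43.1 ± 8.01 CPM in H1CKO, 141 ± 21.4 CPM in H1H2H2 and 89.8 ± 7.48 CPM in control (SD, n = 3, 4 and 4), and its groups did not overlap. The log2 fold change was -1.06 in H1CKO over control (SE 0.145, adjusted p = 8.21e-05, edgeR), 0.66 in H1H2H2 over control (SE 0.128, adjusted p = 0.0101) and 1.71 in H1H2H2 over H1CKO. Fgfrl1, a receptor-like protein without a kinase, was higher in H1CKO (0.81, SE 0.102) and lower in H1H2H2 (-0.35, adjusted p = 0.0332) than in control. The H1H2H2 call on Fgfrl1 was lost in 8 of the 21 alternative settings. In all, 2 of 6 tested genes of this list were higher and 3 lower in H1CKO than in control, where 27% and 25.6% of all genes were called.

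Of 20 Ras-ERK transducers, 4 were higher and 6 lower in H1CKO than in control, with a median log2 fold change of -0.02. The share called, 50%, is near the 52.6% of all genes, and so is no result about the list. Cbl, a ubiquitin ligase for receptor kinases, was higher by 0.55 (SE 0.0734; part of its transcript has a near-identical copy, Gm6695), and the adaptors Gab1 and Frs3 and the GTPase Hras had log2 fold changes of -0.54, -0.82 and -0.32. In H1H2H2 against control 3 were higher and 0 lower, or 15% called beside 16.7% of all genes, again no result about the list. Those 3 were the phosphatase gene Ptpn11 (0.32) and the kinase genes Map2k1 (0.68) and Map2k2 (0.41), named after their values were seen. H1H2H2 against H1CKO gave 12 higher and 4 lower, or 80% called beside 65% of all genes, 31.8% higher and 33.3% lower.

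Among 12 feedback inhibitors, 4 were higher and 1 lower in H1CKO than in control, or 41.7% called beside 52.6% of all genes. Besides Spry2, these were Spred1 (1.09, SE 0.105), Il17rd (1.27, SE 0.133) and Spred3 (1.91, SE 0.285), all inhibitors of Ras-ERK signalling. Dusp9, an ERK phosphatase, was lower, with 217 ± 10.9 CPM in H1CKO, 477 ± 49.5 CPM in H1H2H2 and 376 ± 27.7 CPM in control. Its log2 fold change was -0.79 in H1CKO over control (SE 0.0953, adjusted p = 3.49e-05, edgeR) and 0.34 in H1H2H2 over control (adjusted p = 0.0238), the second lost in 7 of the 21 settings. Spred1 was called higher in H1H2H2 than in control (0.32, adjusted p = 0.0455), a call lost in 12 of the 21 settings. Dusp6, the ERK phosphatase often used as an FGF readout, had a log2 fold change of 0.09 in H1CKO over control (adjusted p = 0.574), and Spry1 had -0.18 (adjusted p = 0.311). Dusp6 and Spry1 were named after their values were seen.

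Of 10 tested ETS factors and immediate-early targets, 6 were higher and 1 lower in H1CKO than in control, or 70% called beside 52.6% of all genes, with a median log2 fold change of 0.97. Etv1 passed the filter through H1CKO alone, and without it 5 of 9 were higher and 1 lower, with a median of 0.78. The 3 genes of the PEA3 family differed in direction. Etv4 was higher, as was Etv1 by 3.07 (SE 0.481), a description since the filter kept Etv1 through H1CKO alone. Etv5 was lower (-1.25, SE 0.182, adjusted p = 0.000127, edgeR). Etv5 had 54.6 ± 20.5 CPM in H1CKO, 149.6 ± 9.28 CPM in H1H2H2 and 130.1 ± 10.8 CPM in control (SD, n = 3, 4 and 4). Etv1 and Etv5 each have a near-identical copy (Gm5454 and Gm4798), so their counts are uncertain. Ier2, an immediate-early gene, was higher in H1CKO (1.16, SE 0.114). Ccnd1, which encodes cyclin D1, was higher in H1CKO (0.78, SE 0.149) and lower in H1H2H2 (-0.91, SE 0.143, adjusted p = 0.00532) than in control, and 28.98% of its exon bases overlap an opposite-strand gene.

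Heparan sulfate and other extracellular cofactors were tested for 23 genes. In H1CKO against control 12 were higher and 2 lower, or 60.9% called beside 52.6% of all genes. Of the 12, 2 passed the filter through H1CKO alone (Fgfbp3 and Flrt1). Without these, 10 of 21 were higher and 2 lower, with a median log2 fold change of 0.22. In H1H2H2 against control 1 was higher and 1 lower, or 8.70% beside 16.7% of all genes, and the lower count ran from 0 to 9 as single libraries were left out. Sulf1, which trims sulfate from heparan sulfate, had 71.1 ± 13.01 CPM in H1CKO, 8.71 ± 2.49 CPM in H1H2H2 and 10.8 ± 3.14 CPM in control (SD, n = 3, 4 and 4). The carrier protein gene Fgfbp3 was higher by 2.81 (SE 0.282) in H1CKO than in control. This value is a description, since the filter kept Fgfbp3 through H1CKO alone. The heparan sulfate proteoglycan Gpc1 was higher in H1CKO than in control by 2.07 (SE 0.226). Of its exon bases, 11.1% overlap Ankmy1 on the opposite strand. Sdc4, another such proteoglycan, was lower in H1CKO (-0.96, SE 0.124, adjusted p = 5.33e-05, edgeR) and higher in H1H2H2 (0.50, SE 0.111, adjusted p = 0.0156) than in control. The H1H2H2 call on Sdc4 was lost in 3 of the 21 alternative settings.

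**Figure D5:**
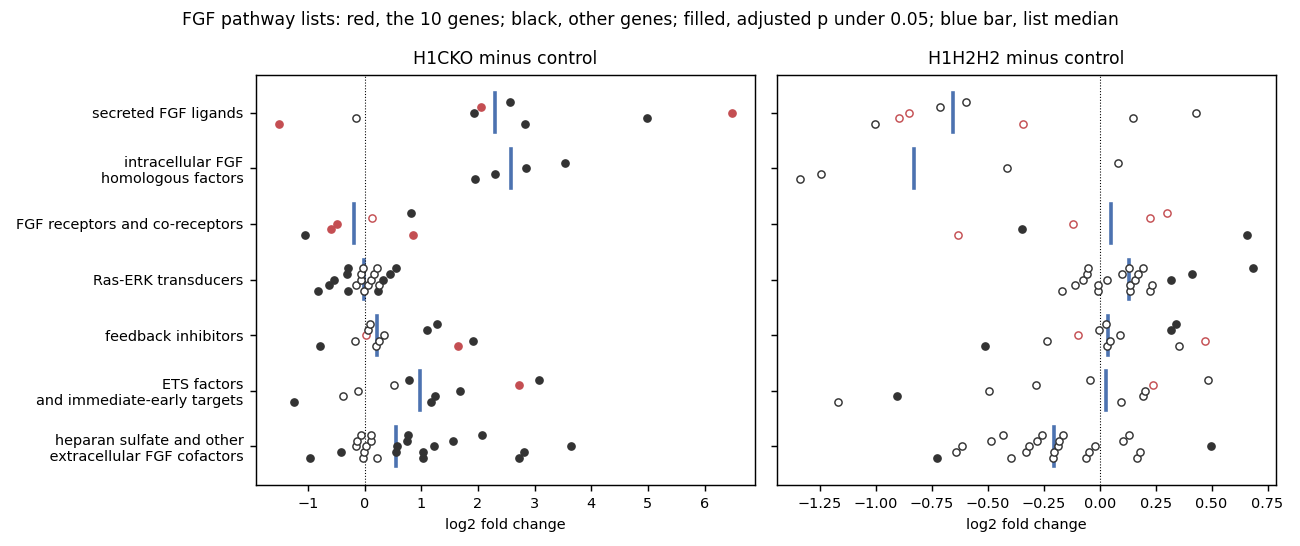
Log2 fold change of the tested genes of 7 FGF pathway lists (rows) in H1CKO minus control and H1H2H2 minus control, with the 10 genes in red, other genes in black, filled points for an adjusted p under 0.05 by edgeR and blue bars for list medians; the x axis differs between panels. In H1CKO the median of the transducers stands at -0.02, the high ligand medians include genes that passed the filter through H1CKO alone, and in H1H2H2 11 of 83 points are filled.

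Genes whose pattern over the 11 libraries was most like each FGF gene were ranked by the root mean square difference of log2 CPM centred on each gene's own mean. The nearest were Muc1 for Fgf1 (0.0759), Ppp1r3c for Fgf8 (0.311), Ankrd13b for Fgf10 (0.166), Zc3h4 for Fgfr1 (0.0527) and Ptprm for Fgfr2 (0.138). For the others they were Actr1a for Fgfr3 (0.097), Spint2 for Fgfr4 (0.0899), Fam110b for Spry2 (0.236), Slc2a4rg-ps for Spry4 (0.124) and Ildr2 for Etv4 (0.308). The second nearest were Tmem150a for Fgf1, Ebf3 for Fgf8, Hdgfrp3 for Fgf10, Ndst1 for Fgfr1, Runx1t1 for Fgfr2, Cr1l for Fgfr3, Hook2 for Fgfr4, Pgm2 for Spry2, Clec1b for Spry4 and Plcb1 for Etv4, at 0.0602 to 0.331. Muc1 and Tmem150a had log2 fold changes of -1.62 and -1.47 in H1CKO over control, beside -1.52 for Fgf1. A gene with a flat pattern, such as Fgfr1, has small differences from many genes.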

How the data were processed

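RNA of E9.5 yolk sac was measured in 11 libraries of 3 genotypes. Per the file headers, the values tested are raw counts of reads for each gene, deposited without normalisation. The authors also deposited expression as log2 FPKM, which served only as an alternative for the receptor shares, and log2 fold changes, p-values and FDR per comparison. The submitters' processing notes name the build mm10 and the tools Subread 1.5.1, featureCounts, STAR 2.5.2b and edgeR, without their roles. Groups were taken from the genotype labels.

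Counts were fitted with edgeR 4.0.16 in R 4.3.3 (filterByExpr, TMM, quasi-likelihood, 1 coefficient per group, all 11 libraries), with Benjamini-Hochberg adjustment over 14671 genes at 0.05. The SE is the size of the log2 fold change over the square root of F. CPM use TMM sizes, and CPM per kb use the deposited gene length. DESeq2 1.42.0 and limma 3.58.1 were alternatives, among 21 settings. The test was checked on simulated data. Counting intervals and floors cover counting error only.

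The 10 genes, the lists and the tests were chosen with earlier results of these data known. Named list genes are the up to 4 per list with the smallest p in any comparison, besides the 10. Likeness used genes of at least 5 CPM on average and log2(CPM + 0.5), unnamed and sex-linked genes left out. Positions and overlaps come from GENCODE on the same build, near-identical copies (95% identity over 300 bases) from BLAST 2.17.0, where Fgfr2 shares such a stretch with Ctbp2 and Fgfr3 with G630022F23Rik. Listed genes without a row, among them Fgf2 and Fgf4, were not analysed here. Values of some single marker genes are not reported here.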

Additional observations from a re-analysis of the deposited data

Results flagged for a closer look

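In groups of 4 libraries, 80 sets of values were searched for a library far from the other 3, and 8 were found, where chance gives about 1 in 20. In H1H2H2, Fgf1 was at 33.7 CPM in library 8 and at 24.3 to 24.7 CPM in the others. Fgf8 was at 0.138 CPM in H1H2H2 11, which is 2 counts, and at 0 in the others. Spry4 was at 8.83 CPM in H1H2H2 9 and at 13.5 to 14.3 CPM in the others. Klb was at 109.6 CPM in H1H2H2 8 and at 149.1 to 155.4 CPM in the others.

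Among the controls, the Fgfr2 share of the summed receptor level was 16.8% in control 4 and 22.5 to 22.97% in the others. Control 4 also had 0.331 CPM of Fgf15, against 0.206 to 0.223 CPM, and 19.4 CPM of Frs3, against 15.7 to 16.2 CPM. Klb was at 101.0 CPM in control 3 and at 85.4 to 86.7 CPM in the others. The cause was not tested for any of these values.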

How the results depend on the processing

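Of 629 alternative values for the 10 genes over 21 settings, 603 kept their direction and call, 4 lost a call (all Fgfr2 in H1CKO over control), 9 gained one and 13 changed sign. The H1H2H2 calls depend most on single libraries. Members called higher in H1H2H2 than in control ranged from 0 to 1 as libraries were left out, and members called lower from 0 to 3, with 1 by DESeq2. Over all genes, the higher calls in H1H2H2 ranged from 430 to 2477 (main 1392) and the lower calls from 264 to 2578 (main 1051); leaving out H1H2H2 8 gave the highest. In H1CKO they ranged from 2932 to 4512 (main 3968) and from 2964 to 4352 (main 3753). Extracellular cofactors called lower in H1H2H2 than in control ranged from 0 to 9 (main 1). Receptor shares from the deposited FPKM moved by less than 1 SD.

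Signs turned for the following values, none of them called. Spry4 in H1CKO over control was -0.0287 with no filter, -0.0212 with only the groups compared, and -0.16 to 0.0883 as libraries were left out. Left-out ranges were -0.18 to 0.0344 for Spry4 and -0.0438 to 0.80 for Etv4 in H1H2H2 over control, and -0.19 to 0.0606 for Spry4 in H1H2H2 over H1CKO. In H1H2H2 over control they were -0.12 to 0.23 for Fgf11, -0.0333 to 0.18 for Frs3, -0.0912 to 0.0833 for Il17rd and -0.16 to 0.37 for Spred3. Il17rd was 0.0257 with control 1 and 2 summed, and Spred3 -0.0207 with upper-quartile factors, which moved the median of all genes in H1H2H2 over H1CKO to -0.14. The cause was not tested. No paired analysis was possible because the groups share no replicate number. At library totals of 12019377 to 16824228 counts, Fgf8 cannot be compared between H1H2H2 and control.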
